A study of Mus musculus with 4 samples.

Results

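The genes described here lie within 20 Mb of Serpinb2 on mouse chromosome 1. Any probe of the array was taken whose position, in build mm9, started between chr1:89422046-129422046, which centres on the start of the Serpinb2 probe. Gene names beginning with Serpinb, or with Col and a digit, were left out. The window held 259 probes of 196 gene names. The brightest probe stood for each name, and a name was kept when that probe was well above background on both arrays of at least 1 genotype. This left 128 gene names of the 18413 measured over the whole array, 99 of them with a gene name and 29 with a predicted or clone name, and 68 names were too dim to use. The file names A730008H23Rik and Hjurp carry the same current RefSeq symbol, Hjurp, and were counted as 2.

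RNA came from primary kidney tubular cells of SerpinB2-/- mice (2 samples) and of wild type mice (2 samples), 1 array each. All mice were male, 8 weeks old and of B6.J background. All cultures were grown in Promocell renal medium and received 100 ng/ml of PMA, a phorbol ester and an activator of protein kinase C, and no untreated cells were measured. The labels do not say whether the samples of a genotype came from separate animals or cultures, so the p-values measure only the spread between these samples. They also do not say which bases of Serpinb2 were removed or in which strain's cells the gene was targeted.

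Serpinb2 encodes plasminogen activator inhibitor 2, an inhibitor of urokinase. It sits in a row of clade B serpin genes on chromosome 1. Alleles that lie close to a targeted gene are passed on together with it when a mouse line is bred, so neighbouring genes can carry sequence from the strain in which the targeting was done. On an oligonucleotide array, a base difference under a probe or a different transcript end can change the signal of that probe. In these arrays, loss of Serpinb2 and alleles that travel with the targeted locus cannot be told apart.

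The Serpinb2 probe had signals of 5.47 and 7.39 units in SerpinB2-/- cells, not well above background, against 3207 and 3276 units in wild type cells. It was at least 140-fold lower in SerpinB2-/- cells (limma, adjusted p = 0.000688). Serpinb10, a clade B serpin gene 0.0213 Mb away that the choice of names leaves out, had 1863 and 1469 units in SerpinB2-/- cells, against 7.22 and 5.43 units in wild type cells, not well above background. Its level was at least 67.0-fold higher in SerpinB2-/- cells (adjusted p = 0.00107). Signals here are probe means scaled to a common 75th percentile of 2003 units. They compare samples for 1 probe and do not rank genes against each other. Between 23409 and 24476 of 39429 probes were well above background on an array, and no spot was saturated. The median absolute log2 difference between a pair of arrays was 0.08 within SerpinB2-/-, 0.08 within wild type and 0.14 to 0.16 across genotypes. The slide held the SerpinB2-/- arrays in positions 3 and 4 and the wild type arrays in positions 1 and 2, and position and genotype cannot be told apart.

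Markers of several cell types differed between the genotypes, and their part in the results below was not tested. Tubular markers such as Krt8, Krt18 and Cdh16 were bright in every sample, and Umod was not measured. Of 15 tubular markers 7 passed the threshold, 2 higher and 5 lower in SerpinB2-/- cells, with summed signals of 549730 to 572259 units in SerpinB2-/- cells and 649352 to 653954 units in wild type cells. Of 13 leukocyte markers 7 were lower and none higher, with sums of 20817 to 22051 units in SerpinB2-/- cells and 25337 to 27561 units in wild type cells. The largest part of these sums came from Itgam, which was not called and overlapped (log2 change -0.09). Of 9 endothelial markers 8 were lower and none higher, with sums of 6037 to 7455 units in SerpinB2-/- cells and 9959 to 10092 units in wild type cells. Here the largest part came from Kdr, which was not called and overlapped (0.05). Of 7 fibroblast and pericyte markers 2 were higher, with sums of 201195 to 244792 units in SerpinB2-/- cells and 153818 to 199306 units in wild type cells, most of it from Acta2, which was not called and overlapped. All 10 cell cycle genes were higher, with sums of 70433 to 71271 units in SerpinB2-/- cells and 46560 to 46755 units in wild type cells. Fewer cells of a type and less RNA per cell cannot be told apart in such samples.

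Some probes of these genes gave opposite answers for 1 gene, and their sequences are shown because the comparisons further on turn on them. First comes the dimmer Gin1 probe, whose 60 bases span 5369 bases of the genome on the plus strand (chr1:99674138-99679506) and so are not continuous in the genome. Next is the dimmer Steap3 probe on the minus strand (chr1:122124269-122124328). Then come the dimmer D2hgdh probes on the plus strand, 1 of which spans 553 bases (chr1:95725818-95726370) while the other lies in 1 block (chr1:95747168-95747227). The last is the Cntnap5a probe on the plus strand (chr1:118477133-118477192), shown because it had the largest change among the 128. Each is given 5′ to 3′ as the array files hold it, in build mm9. No letter is in capitals, because no variant between strains was looked up.
Gin1, dimmer probe: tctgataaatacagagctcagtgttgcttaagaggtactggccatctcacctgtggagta
Steap3, dimmer probe: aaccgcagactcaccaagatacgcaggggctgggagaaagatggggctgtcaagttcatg
D2hgdh, probe across 553 bases: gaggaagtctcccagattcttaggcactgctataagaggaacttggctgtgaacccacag
D2hgdh, probe in 1 block: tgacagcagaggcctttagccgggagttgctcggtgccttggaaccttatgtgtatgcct
Cntnap5a, only probe above background: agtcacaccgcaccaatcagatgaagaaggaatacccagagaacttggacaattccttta

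The first question was how many genes around Serpinb2 differed between the genotypes. Of the 128 genes, 34 passed the threshold of an adjusted p under 0.05 (26.6%), 14 higher and 20 lower in SerpinB2-/- cells. Over all 18413 genes the share was 15.7%, with 6.01% higher and 9.68% lower. Over the 886 genes of chromosome 1 beyond 20 Mb it was 17.6%, with 8.35% higher and 9.26% lower. On the 19 other chromosomes it ran between 13.3% on chromosome 14 and 17.8% on chromosome 6. Among the 119 genes well above background on all 4 arrays, 29 passed (24.4%), 14 higher and 15 lower, against 16.8% of all genes under that filter. The 5 genes that were dim on both SerpinB2-/- arrays were kept through wild type alone, which fixes the side on which they could differ. The 3 genes dim on 1 SerpinB2-/- array were also kept through wild type alone. A_55_P2143376, the 1 gene dim on 1 wild type array, was kept through SerpinB2-/- alone. For these the filter partly fixes the side. No gene was dim on both wild type arrays. With median scaling in place of the 75th percentile, 49 genes passed, 32 higher and 17 lower, against 30.3% of all genes. That scaling moved the median change of all genes to 0.14, and the median of the 128 genes to 0.12. Without SerpinB2-/- replicate 2 the count was 22, where 7.66% of all genes passed. It was 16 without wild type replicate 1 (4.37% of all genes) and 17 without wild type replicate 2 (4.08%). With 2 samples against 2, the exact permutation test cannot give a two-sided p below 0.333 for a single gene, so the calls rest on the spread that limma pools over genes.

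Large changes were a small share of all genes. Of the 128 genes, 10 passed with an absolute log2 change of at least 1 (7.81%), 2 higher and 8 lower. Cntnap5a, St8sia4, Agxt and Mlph, 4 of the 8 lower ones, were dim on both SerpinB2-/- arrays, so the filter fixed their direction. Mgat5, also among the 8, was dim on 1 SerpinB2-/- array and kept through wild type alone, which partly fixed its direction. Among genes well above background on all 4 arrays, 5 of 119 passed with such a change (4.20%), 2 higher and 3 lower, against 197 of 17690 over all genes (1.11%). Among all 18413 genes the count was 255 (1.38%), and over the rest of chromosome 1 it was 12 of 886 (1.35%). On the other chromosomes the share lay between 0.474% and 2.40%. The changes of the 128 genes ran from -3.60 to 1.93, with 62 above 0 and 66 below. Their median was -0.02, against 0.01 over all genes, and their median absolute change was 0.15, against 0.13. In 86 genes (67.2%) the SerpinB2-/- and wild type signals did not overlap, against 64.3% of all genes and 63.8% of the rest of chromosome 1.

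**Figure D1:**
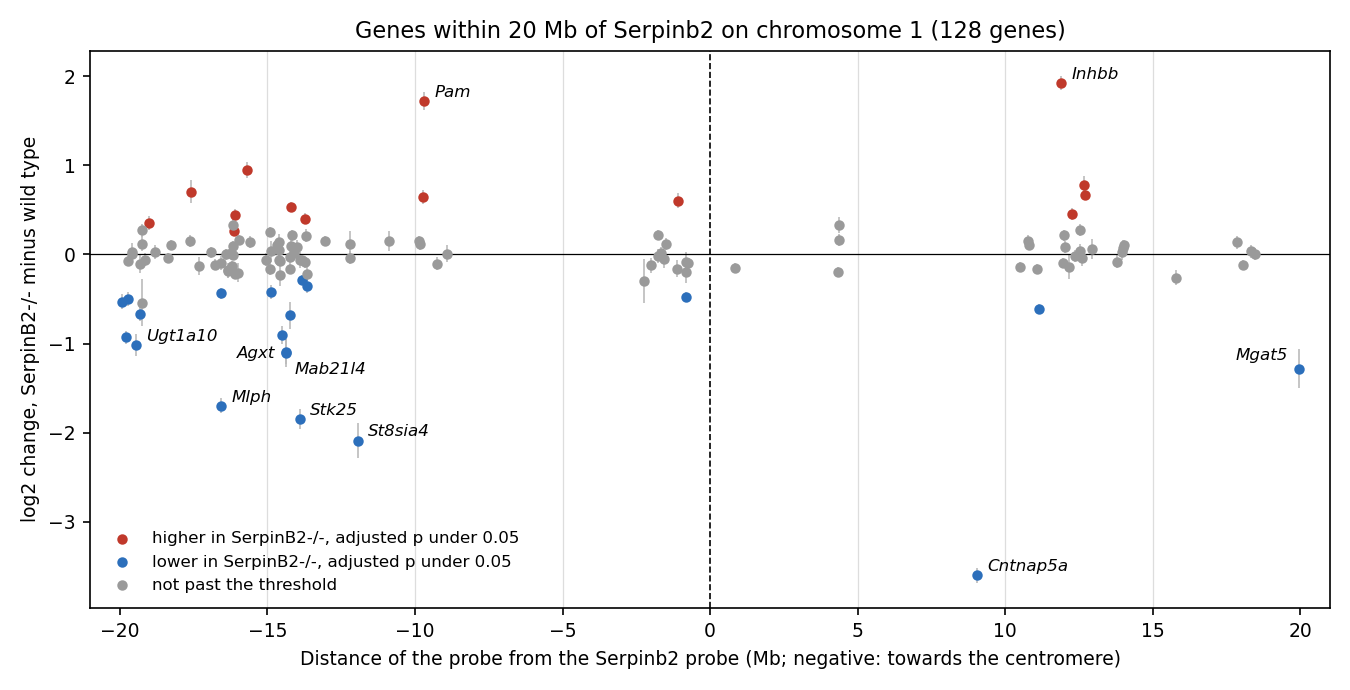
Log2 change (SerpinB2-/- minus wild type, n = 2 arrays each) of the 128 genes against distance from the Serpinb2 probe in Mb, with genes past the threshold marked. The called changes of at least 1 among the 128 lie more than 5 Mb from Serpinb2 on either side, and the 17 genes within 5 Mb (Serpinb names left out) run between -0.48 and 0.60.

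By distance, and with the Serpinb names left out, the counts were as follows. For comparison, with all 4 arrays 15.7% of all genes passed, and 17.6% of the genes of chromosome 1 beyond 20 Mb. With an absolute log2 change of at least 1 these shares were 1.38% and 1.35%. Within 5 Mb of Serpinb2, 2 of 17 genes passed (11.8%), 1 higher and 1 lower. From 5 to 10 Mb it was 3 of 7 (42.9%), from 10 to 15 Mb 16 of 57 (28.1%) and from 15 to 20 Mb 13 of 47 (27.7%). On the centromeric side 27 of 95 genes passed (28.4%), 10 higher and 17 lower. On the distal side 7 of 33 passed (21.2%), 4 higher and 3 lower. Of the 17 genes within 5 Mb none passed with a change of at least 1, whereas Serpinb10, outside the 128, did. The nearest of the 128 that did were Cntnap5a, 9.06 Mb away on the distal side, and Pam, 9.70 Mb away on the centromeric side. Within 10 Mb on both sides 5 of 24 genes passed, and 3 did without wild type replicate 1 or 2. The numbers per step are small, and no test of a trend was made.

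The outermost genes of the window and their next neighbours outside it had these values. Neu2, a sialidase gene 19.9 Mb away and the outermost on the centromeric side, had signals of 89.7 and 101 units in SerpinB2-/- cells, against 133 and 142 units in wild type cells (log2 change -0.53 ± 0.08 SE, adjusted p = 0.0226). This call was lost with normexp background correction, which models the spot's surroundings and adds an offset of 50 (-0.33, adjusted p = 0.0524), without either wild type replicate and without SerpinB2-/- replicate 1. The next measured gene outside, Ngef at 20.05 Mb, had 359 and 403 units in SerpinB2-/- cells, against 528 and 531 units in wild type cells (log2 change -0.48, adjusted p = 0.0234). On the distal side the outermost was Mgat5, and the next outside was Ccnt2 at 20.3 Mb with a log2 change of -0.12 that did not pass. The dimmest gene kept was Mlph, with a mean signal of 17.4 units over the 4 arrays, and the brightest left out as too dim was Panct2 with 34.9 units.

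On the centromeric side, of the 5 nearest genes with the Serpinb names left out, Bcl2 and an unnamed probe passed. Bcl2, an inhibitor of apoptosis 0.81 Mb away, had 886 and 893 units in SerpinB2-/- cells, against 1275 and 1204 units in wild type cells. Both SerpinB2-/- values lay below both wild type values, and the log2 change was -0.48 ± 0.06 (adjusted p = 0.0142). The call was not kept without either wild type replicate. Kdsr, an enzyme of sphingolipid synthesis 0.80 Mb away, had 5101 and 5980 units in SerpinB2-/- cells, against 6160 and 5533 units in wild type cells. These values overlapped, with a change of -0.08 ± 0.10. Vps4b, an ATPase of the ESCRT machinery for sorting membrane proteins, 0.75 Mb away, had 11741 and 11342 units in SerpinB2-/- cells, against 12140 and 12515 units in wild type cells, and its change of -0.10 ± 0.06 did not pass. The clone TC1640857 had 23.7 and 29.7 units in SerpinB2-/- cells, not well above background, against 29.3 and 31.3 units in wild type cells, and was not called either. The unnamed probe A_55_P2143376, 1.09 Mb away, had 44.5 and 44.8 units in SerpinB2-/- cells, against 27.4 and 31.5 units in wild type cells, of which 1 was not well above background. Its change was 0.60 ± 0.08 (adjusted p = 0.0178). The call was lost with normexp background correction (0.24, adjusted p = 0.0873), and also without wild type replicate 1 or SerpinB2-/- replicate 2.

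On the distal side the first 4 genes did not pass. Dsel, which epimerises uronic acid in dermatan sulfate chains, lay 4.33 Mb away and had 2788 and 2777 units in SerpinB2-/- cells, against 3259 and 3132 units in wild type cells (log2 change -0.20 ± 0.06, adjusted p = 0.0829). Its groups did not overlap. The transcripts ENSMUST00000185629, NAP114307-1 and ENSMUST00000077111 had changes of -0.15, 0.33 and 0.16. Next came Cntnap5a.

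**Figure D2:**
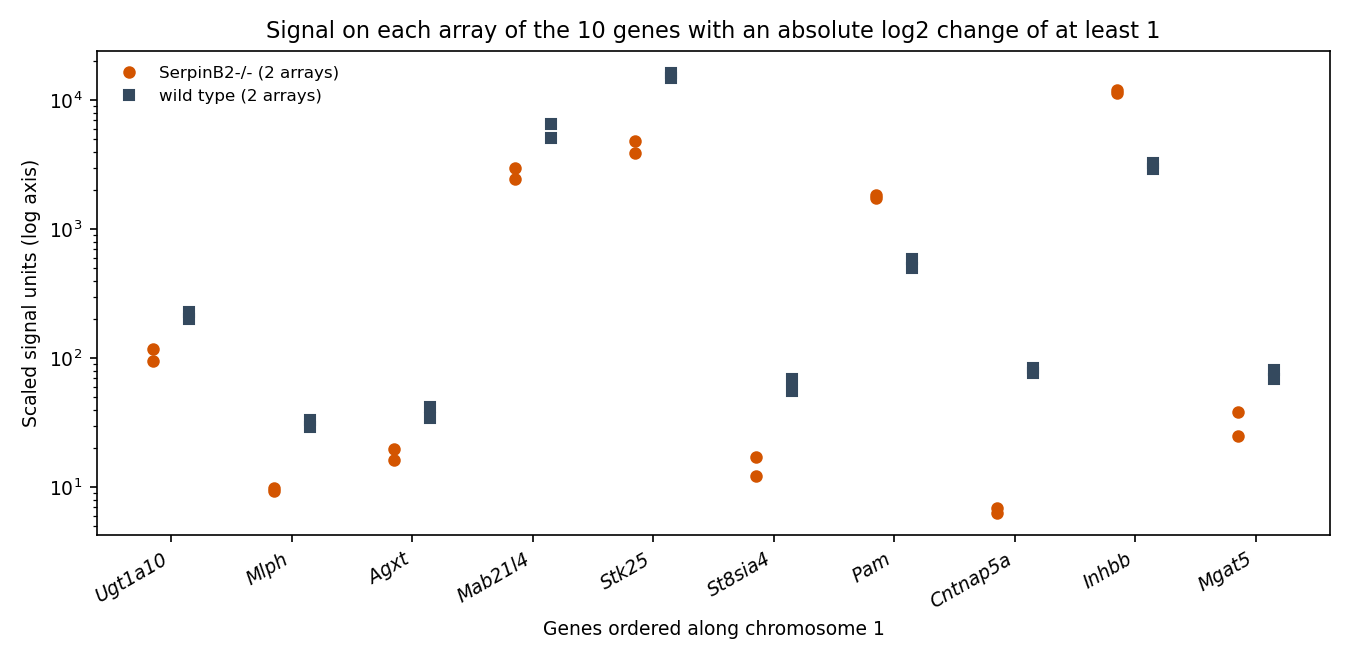
Signal on a log axis, in units scaled to a common 75th percentile, of the 10 called genes with an absolute log2 change of at least 1 in the 2 SerpinB2-/- arrays (left of each pair) and the 2 wild type arrays (right). Their values do not overlap between the genotypes, with Inhbb and Pam higher and the other 8 lower in SerpinB2-/- cells.

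Cntnap5a, a neurexin-like cell adhesion protein mainly known from neurons, had 6.97 and 6.31 units in SerpinB2-/- cells, not well above background, against 77.0 and 84.2 units in wild type cells. It was at least 3.47-fold lower in SerpinB2-/- cells (adjusted p = 0.00107). The groups were far apart and no other probe of the gene was above background. With normexp correction the log2 change was -1.04, against -3.60, and still passed (adjusted p = 0.00301).

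In the broadly drawn list of hormone and receptor signalling genes Inhbb and Pam were higher and Stk25 was lower in SerpinB2-/- cells. Inhbb, the beta B subunit of activins and inhibins, had 11443 and 11974 units in SerpinB2-/- cells, against 3253 and 2917 units in wild type cells. It rose 3.80-fold (log2 change 1.93 ± 0.08, adjusted p = 0.00622) and both SerpinB2-/- values lay well above both wild type values. Its probe lies at chr1:121312160-121312219 on the minus strand, 11.9 Mb away. Stk25, a kinase of the germinal centre kinase family tied to cell polarity, had 3923 and 4805 units in SerpinB2-/- cells, against 14953 and 16334 units in wild type cells. It was 3.60-fold lower (log2 change -1.85 ± 0.12, adjusted p = 0.00704), with groups far apart. Its probe lies at chr1:95518612-95518671 on the minus strand, 13.9 Mb away.

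Pam, the enzyme that amidates peptide hormones at their C terminus, had 1732 and 1841 units in SerpinB2-/- cells, against 586 and 497 units in wild type cells. It rose 3.31-fold (log2 change 1.73 ± 0.10, adjusted p = 0.00704), again without overlap. Pask, a kinase with a PAS domain, had 2205 and 2152 units in SerpinB2-/- cells, against 1472 and 1539 units in wild type cells (0.53 ± 0.06, adjusted p = 0.0112), a call not kept without wild type replicate 1. Sned1, an extracellular matrix protein, fell by 0.68 on the log2 scale (adjusted p = 0.047), and was not called with quantile normalization, with outlier spots kept, or without wild type replicate 2 or either SerpinB2-/- replicate. Tnfrsf11a, the receptor RANK for the osteoclast ligand RANKL, had 382 and 408 units in SerpinB2-/- cells, against 390 and 391 units in wild type cells, with a change of 0.02 ± 0.06. Of the 15 genes measured in this list, 5 passed, against 15.7% of all genes, 3 higher and 2 lower, with a median of 0.02. The 2 lower were Stk25 and Sned1, a kinase and a matrix protein that the broadly drawn list took in.

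In the list of lipid, sterol, metal and metabolite enzymes 7 of 15 genes passed, against 15.7% of all genes. Of the 7, 2 were higher and 5 lower, and the median of the list was -0.08. The 2 higher were Gin1, related to retroviral integrases, and Steap3, and a further probe of each passed with the opposite sign. With the mean of the probes both turned lower, and D2hgdh, among the 5 lower, turned higher. Inpp5d, the lipid phosphatase SHIP1 best known from blood cells, had 181 and 166 units in SerpinB2-/- cells, against 334 and 327 units in wild type cells (-0.93 ± 0.07, adjusted p = 0.00706). It moved the same way as the leukocyte markers, of which 7 of 13 were lower, while the macrophage receptor Marco did not pass (0.06). A link with these markers was not tested. Agxt, which clears glyoxylate in liver peroxisomes, had 19.7 and 16.2 units in SerpinB2-/- cells, not well above background, against 42.0 and 34.5 units in wild type cells. It was at least 1.64-fold lower (adjusted p = 0.0143), and its call was lost with normexp correction (-0.25, adjusted p = 0.121). Dgkd, a diacylglycerol kinase that removes the lipid which PMA mimics, had 5569 and 4957 units in SerpinB2-/- cells, against 4782 and 5517 units in wild type cells. Its values overlapped, with a change of 0.03 ± 0.10.

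Ugt1a10 had 118 and 94.7 units in SerpinB2-/- cells, against 227 and 200 units in wild type cells (-1.02 ± 0.13, adjusted p = 0.0142). Its call was not kept without wild type replicate 1. Ugt1a6b, outside the list, had 11688 and 10299 units in SerpinB2-/- cells, against 17850 and 16915 units in wild type cells (-0.66 ± 0.08, adjusted p = 0.0142), a call not kept without either wild type replicate. Both belong to the Ugt1a cluster, whose transcripts encode enzymes that add glucuronic acid to drugs and bilirubin and share their last exons. The Ugt1a10 probe starts at base 794 of its transcript and the Ugt1a6b probe at base 2212. Whether either lies in a shared exon was not looked up, so which member each reads is uncertain.

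In the list of membrane traffic and the cytoskeleton 5 of 17 genes passed, against 15.7% of all genes. All 5 were lower, and the median of the list was -0.09. The list was drawn broadly and holds Cntnap5a, also counted among surface proteins, Mgat5, a glycosyltransferase, and Tmem177, a mitochondrial protein. Of the 5 that passed, Cntnap5a and Mlph were dim on both SerpinB2-/- arrays and Mgat5 on 1, so the filter partly fixed this direction. Among the 14 genes of the list well above background on all 4 arrays, 2 passed (14.3%), against 16.8% of all genes under that filter. These were Kif1a and Rab17, both lower. Mlph, which links RAB27A to myosin Va on pigment granules, had 9.36 and 9.96 units in SerpinB2-/- cells, not well above background, against 29.5 and 33.3 units in wild type cells. It was at least 1.35-fold lower (adjusted p = 0.00704), and normexp correction ended the call (-0.33, adjusted p = 0.0609). Mgat5, a Golgi glycosyltransferase that branches N-glycans, lay 19.9 Mb away and had 38.1 and 24.8 units in SerpinB2-/- cells, 1 of them not well above background, against 81.3 and 68.8 units in wild type cells. Its change of -1.28 ± 0.22 passed (adjusted p = 0.0266), but not with quantile normalization and not without either wild type replicate. With normexp correction the change was -0.51 (adjusted p = 0.0117).

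Kif1a, a kinesin that carries synaptic vesicle precursors in neurons, had 4563 and 4167 units in SerpinB2-/- cells, against 7549 and 8823 units in wild type cells (-0.90 ± 0.10, adjusted p = 0.011). Rab17, a small GTPase of epithelial transport, fell by 0.44 on the log2 scale (adjusted p = 0.02) and by 0.29 with normexp correction, and was not called when any 1 of the 4 arrays was left out. Tmem177, a mitochondrial membrane protein, had 480 and 448 units in SerpinB2-/- cells, against 455 and 485 units in wild type cells, a change of -0.02.

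Among transcription and chromatin genes 3 of 10 passed, against 15.7% of all genes, 2 higher and 1 lower, with a median of 0.07. Twist2, a basic helix-loop-helix factor of mesenchymal cells, had 874 and 955 units in SerpinB2-/- cells, against 505 and 445 units in wild type cells (0.95 ± 0.09, adjusted p = 0.00888). Of 7 fibroblast and pericyte markers, Postn and Mfap5 were also higher in SerpinB2-/- cells and the other 5 did not pass. Tfcp2l1, a transcription factor of the distal nephron and collecting duct, had 2672 and 2735 units in SerpinB2-/- cells, against 4191 and 4089 units in wild type cells (-0.61 ± 0.06, adjusted p = 0.00851). Per2, a repressor in the circadian clock, had 90.9 and 100 units in SerpinB2-/- cells, against 69.6 and 71.4 units in wild type cells (0.44 ± 0.07, adjusted p = 0.0248). Normexp correction reduced it to 0.28, and it did not pass there, nor without SerpinB2-/- replicate 2 or either wild type replicate. Lrrfip1, a nucleic acid binding protein, had overlapping values with a change of 0.00.

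The shorter lists are given beside the 15.7% of all genes that passed. In the list of cell survival and death, 2 of 5 genes passed, Bcl2 and Thap4, both lower. Thap4, a zinc finger and haem-binding protein, was taken in because the list was drawn broadly. It had 5603 and 5469 units in SerpinB2-/- cells, against 6636 and 6864 units in wild type cells (-0.29 ± 0.06, adjusted p = 0.0382). Of 5 genes of replication, RNA helicases and translation, Dtymk passed. It makes thymidine diphosphate for DNA synthesis, and had 13770 and 13118 units in SerpinB2-/- cells, against 9978 and 10389 units in wild type cells (0.40 ± 0.06, adjusted p = 0.0211). Ddx18, an RNA helicase of ribosome assembly, had a change of 0.10 that did not pass. Thap4 and Dtymk both lost their calls when any 1 of the 4 arrays was left out, and Thap4 also with median scaling (-0.15) and with the replicate block. Of 5 cadherins, contactins and other surface proteins 1 passed, Cntnap5a, and Marco, a scavenger receptor of macrophages, had 5125 and 4888 units in SerpinB2-/- cells, against 5328 and 4339 units in wild type cells (0.06 ± 0.11).

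Genes in no list or without a known name also passed. St8sia4, which builds polysialic acid, had 12.3 and 17.2 units in SerpinB2-/- cells, not well above background, against 55.5 and 68.9 units in wild type cells. It was at least 2.67-fold lower (adjusted p = 0.00851), and its log2 change with normexp correction was -0.63 (adjusted p = 0.0232). Mab21l4, named 2310007B03Rik on the array, had 2970 and 2433 units in SerpinB2-/- cells, against 5142 and 6515 units in wild type cells (-1.11 ± 0.15, adjusted p = 0.0176). Its call was not kept without wild type replicate 2. Gbx2, a homeobox factor of the early brain, had 88.6 and 114 units in SerpinB2-/- cells, against 62.7 and 60.6 units in wild type cells (0.70 ± 0.13, adjusted p = 0.0308). It was lost with normexp correction (0.42, adjusted p = 0.0597) and without either wild type replicate.

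The further probes of these genes gave another reading of the same transcripts, except where they lie on or beside the brightest probe. The Ddx18 probes start at chr1:123450470 and chr1:123450472, the Dbi probes overlap, and the Ugt1a10 probes adjoin. Such pairs are not separate readings but are included in the counts below. Besides the brightest probe, 43 further probes of 37 genes were above background, and 14 of them passed when every probe was fitted by itself, against 16% of all probes. The sign of the further probe matched that of the brightest in 26 of 43 cases (60.5%), against 68.7% of 5761 further probes over all genes. The median absolute difference between both probes' log2 changes was 0.16, against 0.12 over all genes. A difference of at least 1 was found for 4 of the 43 (9.30%), against 19 of 5761 (0.33%). Both probes passed with opposite signs for 3 of the 43 (6.98%), against 9 of 5761 (0.156%). The 4 and the 3 are also counted in these totals over all genes. Of the 4, only the Steap3 probe was well above background on all 4 arrays. The Gin1 probe was dim on both SerpinB2-/- arrays, the Pam probe on 1 of them and the D2hgdh probe on 1 wild type array. These were kept through the genotype in which they were higher, so the filter partly fixed their direction. Gin1 and D2hgdh are also among the 3. The shares for probes well above background on all 4 arrays were not computed.

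**Figure D3:**
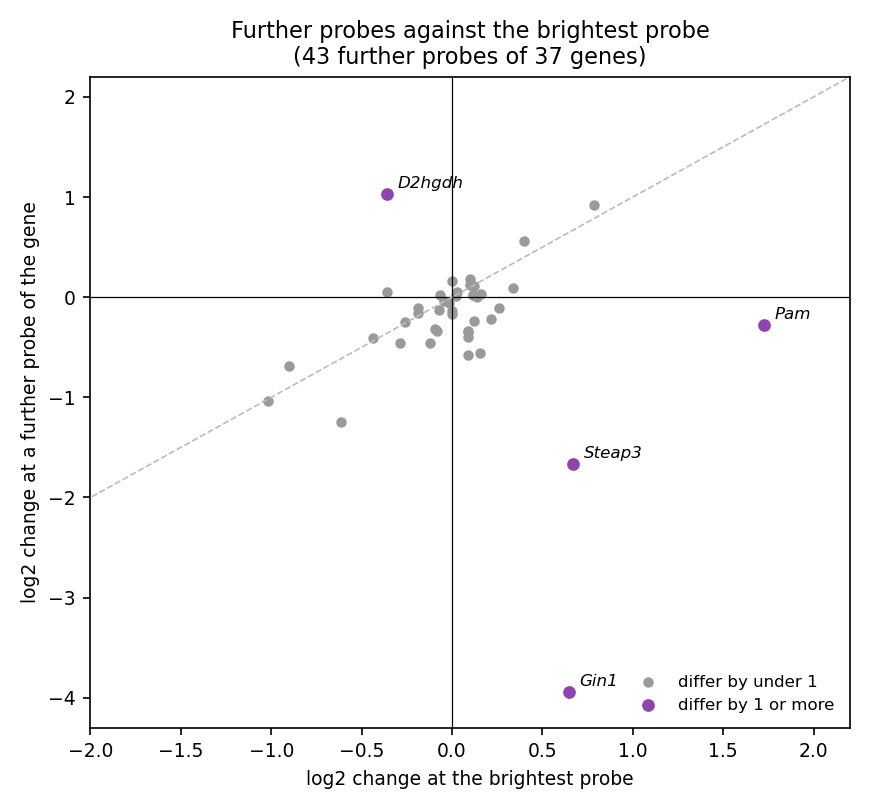
Log2 change (SerpinB2-/- minus wild type) of each of the 43 further probes against that of the brightest probe of its gene. Points on the diagonal have equal changes, and Gin1, Steap3, Pam and a D2hgdh probe lie more than 1 away from it.

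Gin1, a gene related to retroviral integrases, showed the widest gap. Its brightest probe had 265 and 290 units in SerpinB2-/- cells, against 186 and 169 units in wild type cells (0.64 ± 0.08, adjusted p = 0.0141). The call was not kept without wild type replicate 2. The dimmer probe, which is not continuous in the genome and is printed above, had 22.0 and 25.2 units in SerpinB2-/- cells, not well above background, against 361 and 362 units in wild type cells. It was at least 15.01-fold lower (adjusted p = 0.000748), and it was called with a negative change under all 8 other settings in which every probe was fitted, from -4.04 to -2.17. The mean of both Gin1 probes changed by -1.65, opposite in sign to the brightest. It starts at base 424 of its transcript, and the brightest probe at base 1775.

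Steap3, an iron reductase of endosomes that serves transferrin iron uptake, had a smaller gap of the same kind. Its brightest probe had 269 and 260 units in SerpinB2-/- cells, against 167 and 165 units in wild type cells (0.67 ± 0.06, adjusted p = 0.00769). The dimmer probe had 58.2 and 58.9 units in SerpinB2-/- cells, against 204 and 169 units in wild type cells (-1.66 ± 0.10, adjusted p = 0.00672). Neither probe's groups overlapped, the signs were opposite, and the mean of both probes changed by -0.50. The dimmer probe starts at base 1792 and the brightest at base 2817 of the transcript.

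D2hgdh, which oxidises the metabolite D-2-hydroxyglutarate in mitochondria, had the reverse order. Its brightest probe had 350 and 326 units in SerpinB2-/- cells, against 414 and 453 units in wild type cells (-0.36 ± 0.08, adjusted p = 0.0421). This call was lost with quantile normalization, with median scaling, with the replicate block, and when any 1 of the 4 arrays was left out. The probe that spans 553 bases had 56.2 and 73.7 units in SerpinB2-/- cells, against 34.5 and 28.7 units in wild type cells, 1 of them not well above background (1.03 ± 0.16, adjusted p = 0.0201). With normexp correction that probe did not pass (0.44, adjusted p = 0.0629). The probe in 1 block had 45.2 and 51.2 units in SerpinB2-/- cells, against 43.5 and 49.8 units in wild type cells, and overlapped. The mean of the 3 probes changed by 0.24.

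**Figure D4:**
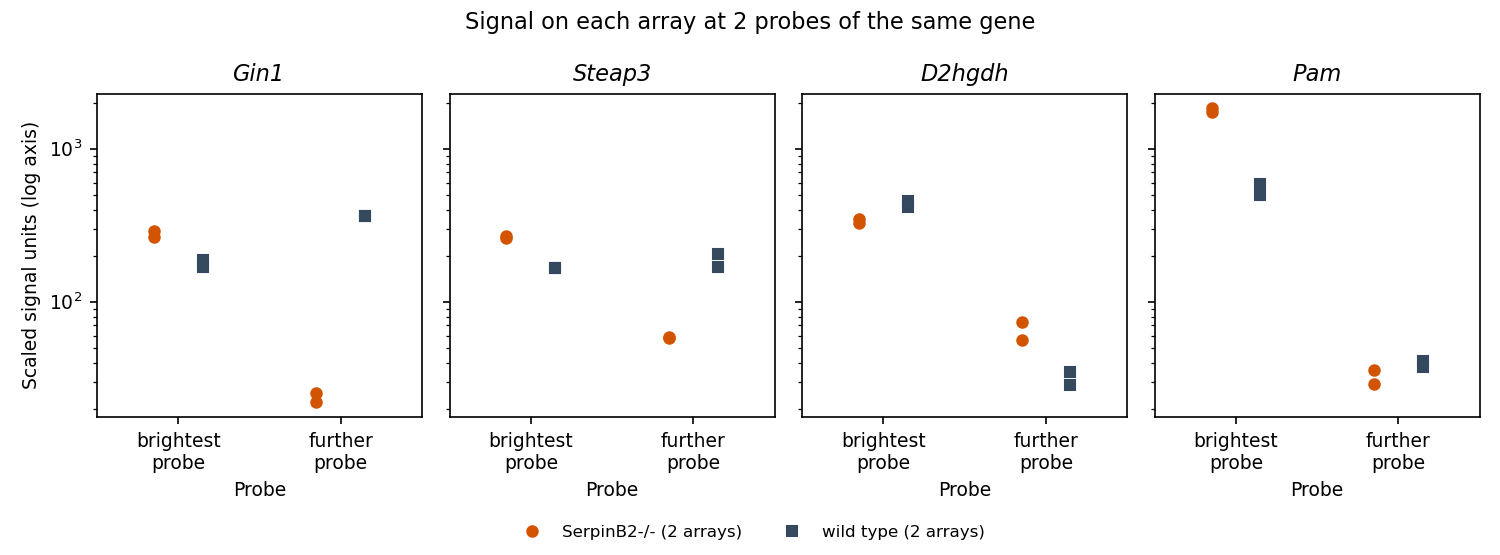
Signal on a log axis of the brightest probe and the most different further probe of Gin1, Steap3, D2hgdh and Pam, with the 2 SerpinB2-/- arrays left and the 2 wild type arrays right. In Gin1 and Steap3 the brightest probe is higher and the further probe lower in SerpinB2-/- cells, and in D2hgdh the order is reversed.

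For Pam the further probe was not called, and the mean of both probes changed by 0.72. It had 35.7 and 29.0 units in SerpinB2-/- cells, against 40.7 and 37.5 units in wild type cells (-0.28 ± 0.12, adjusted p = 0.162). It lies at chr1:99950569-99950628 on the minus strand, while the brightest lies at chr1:99718052-99718111. The further probe of Ilkap, a phosphatase that acts on integrin-linked kinase, also had the opposite sign (-0.10, adjusted p = 0.557). Its brightest probe had 9485 and 9810 units in SerpinB2-/- cells, against 8096 and 8019 units in wild type cells (0.26 ± 0.06, adjusted p = 0.045), a call not kept with quantile normalization, scaling on detected probes, the authors' deposited table, the mean of the probes (0.08) or the replicate block, nor when any 1 of the 4 arrays was left out.

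For 7 other called genes the further probe passed with the same sign. The Tfcp2l1 further probe had 929 and 820 units in SerpinB2-/- cells, against 2208 and 1933 units in wild type cells (-1.24 ± 0.10, adjusted p = 0.00727), and the mean of both probes changed by -0.93. The further probes of Kif1a, Thap4 and Rab17 were lower by log2 changes of -0.69, -0.46 and -0.40, and those of Dtymk and 3110009E18Rik were higher by 0.56 and 0.92. The Ugt1a10 further probe was not well above background in SerpinB2-/- cells and at least 1.82-fold lower. It ends at chr1:89952779, directly before the brightest probe, which starts at chr1:89952780. In 3 genes whose brightest probe did not pass, a further probe did. These were Macir, a regulator of macrophage cytokine release named D1Ertd622e on the array, with -0.55, Pign, an enzyme of GPI anchor synthesis, with -0.46, and Epb4.1l5, an organiser of epithelial polarity, with -0.58 and -0.40 in a pair of probes. Inhbb, Stk25, Cntnap5a and Bcl2 had no further probe above background.

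Of the 34 called genes, 10 kept an adjusted p under 0.05 in each of up to 17 other settings, namely background correction, scaling, filters on dim probes, probe choice, fit, replicate block and each array left out. They were Inpp5d, Twist2, Kif1a, Stk25, St8sia4, Pam, Cntnap5a, Tfcp2l1, Inhbb and Steap3, and only Steap3 turned its sign, where its detected probes were averaged. The fit without a filter on dim probes, which called Cntnap5a alone, and the unmoderated test, which called none of the 128 genes, are not among those settings.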

How the data were processed

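Total RNA (150 ng) was labelled with Cy3 and put on 1-colour Agilent arrays. Per the file headers, the deposited intensity values are background-subtracted processed signals, made with Agilent Feature Extraction 10.7.3.1 (also per the submitters' processing notes). The deposited table of the authors' own values has a linear intensity scale, and no source used here says how it was made, so it served as an alternative.

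Control spots and outlier spots were left out, log2 signals of the other spots were averaged per probe, and the 75th percentile of log2 signal was subtracted per array. A probe was used if over 50% of its spots were well above background on both arrays of at least 1 genotype. SerpinB2-/- was compared with wild type over all 18413 gene names with limma 3.58.1 in R 4.3.3 (eBayes, Benjamini-Hochberg, threshold 0.05), after a test on simulated data. Where both arrays of a group were dim, "at least" folds use the lowest signal well above background as a floor. Positions are those of the files (mm9). Of the 128 genes, 108 matched RefSeq (GRCm38.p6), used for names only, and no exon or UTR is stated because no mm9 annotation was used here.

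Named genes were every called gene with an absolute log2 change of at least 1, the 5 nearest on each side, the largest called change per distance step, called genes with a further probe of opposite sign, and up to 3 called genes and the least changed gene per functional list. A few others are named beside them and were chosen after their values were seen. The genes and lists were chosen with earlier results of these data known, so list counts are descriptions with no list test. The number of arrays limits the precision.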

Additional observations from a re-analysis of the deposited data

How the results depend on the processing

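The count of genes past the threshold, 34 of 128, lay between 26 and 40 with normexp background correction, quantile normalization, the authors' table, scaling on probes detected everywhere, a stricter filter on dim probes (29 of 119, 14 higher and 15 lower), outlier spots kept, the mean of the detected probes, every probe by itself, a trended or robust fit and array weights. Over all genes the share that passed ran between 12.8% and 20.9% in these settings. The count was 49 with median scaling, against 30.3% of all genes. With an array left out it ran between 16 and 25. It was 1 of 196 without a filter on dim probes, where 3 of 29924 genes passed in all. The unmoderated test gave 0, with 4447 of all genes at an unadjusted p under 0.05. It was 10 at an adjusted p under 0.01, where 2.37% of all genes passed, and 43 under 0.1, where 26.3% did. In a window of 10 Mb on each side it was 5 of 24, against 15.7% of all genes. Within 10 Mb the count of 5 became 10 with median scaling and 3 to 5 with an array left out. The median change moved to 0.12 with median scaling. With the mean of the detected probes the changes turned sign for D2hgdh (0.24), Gin1 (-1.65) and Steap3 (-0.50). The further probes matched in sign in 24 to 29 of 43 cases in every setting run. With the replicate number as a replicate block 30 genes passed, against 11.7% of all genes. The replicate differences of both genotypes correlated at r = 0.21 over 24174 probes, and the labels do not say what the numbers share, so the block is given only here and beside the genes it touched. The cause of these shifts was not tested. With normexp 12 of the 34 changes were smaller by over 1.5 times, and 8 lost their call.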
